A study of Mus musculus with 15 samples.

Results

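Long intergenic non-coding RNAs (lincRNAs) that were abundant in mouse oocytes were described across oocytes grown in vivo and in follicles grown in vitro with or without neurotrophin-4 (NT-4). The members are the genes of GENCODE vM21 biotype lincRNA whose mean over the 15 oocyte libraries was at least 10 CPM (per-million read counts), with the library total taken without the annotated rRNA gene CT010467.1. This rule gave 223 genes of the 5614 lincRNA genes listed, of which 3113 had a count, and of 55401 genes in all. They were chosen by their mean level in these libraries, so that level is a description and is not tested.

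Each library was made from 6 pooled oocytes of Kunming mice by SMART-Seq2, a method that primes cDNA on poly(A) tails and amplifies it by PCR, and each group has 3 libraries. All oocytes were at the germinal vesicle stage, and those from follicles grown in vivo form the IVV group, with libraries numbered 2, 3 and 4. The cultured groups, with libraries numbered 1, 2 and 3, come from preantral follicles of mice aged 12 to 14 days. The study's methods take the IVV oocytes from punctured antral follicles and do not tie an age to the mice of those sequenced. Another section, on detecting the receptor TRKB, names mice of 2 and 6 weeks beside such a puncture. Age and culture therefore cannot be told apart where IVV is compared. Oocytes were taken on day 10 of follicle culture in plain medium (IVG) or in medium that held NT-4 at 100 ng/mL (IVG-NT), or on day 6 in the same media (IVG-d6 and IVG-NT-d6). The study asked how oocytes of cultured follicles differ from those grown in vivo, and what NT-4, a ligand of the receptor TRKB, changes. A lower level in some of the pooled oocytes and a lower level in each of them cannot be told apart in these libraries.

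LincRNAs are transcribed from their own promoters, mostly by RNA polymerase II, and many are spliced and polyadenylated like mRNA. Some act in the nucleus, such as Xist, which coats and silences an X chromosome in female somatic cells, and Malat1, which sits in nuclear speckles. Growing oocytes transcribe many non-coding loci, in part from promoters in retrotransposon sequence, and store polyadenylated RNA until transcription stops before meiosis resumes. Of the 223 lincRNAs, 199 carry only a predicted-gene, clone or RIKEN name, and for most of them no function is known.

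Total counts ranged from 5954262 to 55593251 per library. IVG-NT-d6 1 and IVG-NT-d6 2 were the shallowest, with 5954262 and 7125348 counts, so that 1 count equals 0.24 and 0.194 CPM outside the rRNA gene there. CT010467.1 took 12.5% to 37.9% of counts in 9 libraries (IVV 3 and libraries 1 and 2 of each cultured group, here called rRNA-rich) and 0.187% to 0.714% in the other 6 (rRNA-poor). Over the 223 lincRNAs, Spearman correlations of CPM between pairs of libraries were 0.87 to 0.99 among the rRNA-poor, 0.773 to 0.961 among the 7 rRNA-rich libraries other than IVG-NT-d6 1 and 2, and 0.606 to 0.759 between these sets. Within IVG-NT-d6 they were -0.0858 to 0.0974. These correlations are descriptions over genes that share their libraries. The oocyte label held in every library, with 12727 to 23959 CPM over 10 oocyte genes such as Zp1 and Gdf9. Granulosa cell genes summed to 59.7 to 359 CPM, theca and stroma genes to 0 to 33.7 and blood genes to 0 to 30.3. IVG-NT-d6 1 and 2 had 162 and 171 CPM of the granulosa cell genes, and most of each sum came from 1 gene. Kitl was at 123 CPM in IVG-NT-d6 1, against 0.71 to 13.3 CPM in the other libraries, and Nr5a2 at 128 CPM in IVG-NT-d6 2, against 5.99 to 93.2 CPM. Lhcgr was highest in the same libraries (16.8 and 36.5 CPM), while Fshr and Inhba were at 0 in both and Inha at 0 and 4.86 CPM.

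The last 60 bases of the longest annotated transcript are shown for 9 of the 10 most abundant lincRNAs, since the method copies RNA from its poly(A) tail and a poly(A) signal marks where that tail can be added. Coordinates are of GRCm38, the letters come from the GENCODE vM21 transcripts and read 5′ to 3′, and capitals mark AATAAA or its common variant ATTAAA in the last 50 bases.
Gm1965, chr6:89147294-89147353 (+): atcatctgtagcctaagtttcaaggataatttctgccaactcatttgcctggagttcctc
Gm3143, chr3:34709623-34709682 (-): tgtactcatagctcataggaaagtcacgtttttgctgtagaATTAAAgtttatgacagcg
Gm1070, chr6:71302821-71302880 (+): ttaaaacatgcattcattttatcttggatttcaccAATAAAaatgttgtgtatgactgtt
Gm16497, chr12:14285625-14285684 (+): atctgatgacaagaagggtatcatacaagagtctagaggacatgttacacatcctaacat
Gm839, chr6:89211165-89211224 (-): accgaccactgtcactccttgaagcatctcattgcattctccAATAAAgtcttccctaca
4933427D06Rik, chr6:89109972-89110031 (+): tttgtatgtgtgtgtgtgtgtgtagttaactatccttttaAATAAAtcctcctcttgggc
1700018B24Rik, chr3:48605732-48605791 (-): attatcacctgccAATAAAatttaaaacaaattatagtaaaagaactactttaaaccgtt
Gm43269, chr5:119916787-119916846 (+): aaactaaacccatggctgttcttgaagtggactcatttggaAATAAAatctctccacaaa
A730082K24Rik, chr7:114983901-114983960 (+): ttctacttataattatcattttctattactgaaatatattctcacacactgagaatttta

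Of these 9 ends, 6 held a signal and those of Gm1965, Gm16497 and A730082K24Rik did not. Among all 223 lincRNAs 126 transcripts (56.5%) held a signal in the last 50 bases, against 1375 of 2890 other lincRNAs with a count (47.6%). TTTTAT, or the longer form TTTTAAT, the letters of cytoplasmic polyadenylation elements, stood in the last 150 bases of 48 (21.5%) and 372 (12.9%). Annotated ends were taken as they are, and no read positions were used.

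Promoter sequences, from 250 bases before to 50 after a RefSeq start on GRCm38.p6, were matched by symbol for 102 lincRNAs (119 sequences) out of 27025 genes (32851 sequences). A search of these 119 against all promoters on the same strand, with a BLAST e-value limit of 1e-10, found 6 lincRNAs whose promoters resemble each other. They are Gm3143, Gm16497, Gm17751, Gm19299, Gm30551 and Gm4224, on chromosomes 3, 12, 1, 9, 13 and 7. The aligned stretches are shown because they join loci on 6 chromosomes, among them Gm3143 and Gm16497, which are among the 10 most abundant lincRNAs. Capitals mark TAATTG, or on the other strand CAATTA, the core letters bound by homeodomain factors such as the oocyte factor NOBOX, and TATAA, the core of the TATA box.
Gm3143, chr3:34716629-34716886 (-): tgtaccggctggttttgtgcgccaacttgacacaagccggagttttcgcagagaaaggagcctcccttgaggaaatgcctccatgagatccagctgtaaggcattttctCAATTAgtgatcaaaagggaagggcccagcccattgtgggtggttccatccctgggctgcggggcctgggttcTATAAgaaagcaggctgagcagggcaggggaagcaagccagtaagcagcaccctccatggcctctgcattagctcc
Gm16497, chr12:14261336-14261581 (+): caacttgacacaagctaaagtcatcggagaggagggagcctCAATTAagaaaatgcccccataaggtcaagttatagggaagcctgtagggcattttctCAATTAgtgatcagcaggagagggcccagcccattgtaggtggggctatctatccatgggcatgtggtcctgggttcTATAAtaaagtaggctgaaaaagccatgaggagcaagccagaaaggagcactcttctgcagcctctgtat
Gm17751, chr1:76488925-76489182 (+): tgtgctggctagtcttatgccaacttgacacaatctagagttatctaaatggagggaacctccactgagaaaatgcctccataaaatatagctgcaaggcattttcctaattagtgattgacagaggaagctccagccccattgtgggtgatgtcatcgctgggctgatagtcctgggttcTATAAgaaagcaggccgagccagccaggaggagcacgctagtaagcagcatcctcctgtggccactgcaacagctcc
Gm19299, chr9:67133356-67133606 (+): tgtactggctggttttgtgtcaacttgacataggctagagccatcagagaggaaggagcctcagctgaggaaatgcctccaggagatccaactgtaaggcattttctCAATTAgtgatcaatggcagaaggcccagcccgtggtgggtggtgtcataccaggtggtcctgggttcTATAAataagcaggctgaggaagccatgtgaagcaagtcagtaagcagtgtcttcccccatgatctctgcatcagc
Gm30551, chr13:103707591-103707759 (-): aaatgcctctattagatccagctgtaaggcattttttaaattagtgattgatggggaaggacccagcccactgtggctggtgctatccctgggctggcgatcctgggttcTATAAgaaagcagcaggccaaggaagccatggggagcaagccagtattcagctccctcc
Gm4224, chr7:12221111-12221363 (+): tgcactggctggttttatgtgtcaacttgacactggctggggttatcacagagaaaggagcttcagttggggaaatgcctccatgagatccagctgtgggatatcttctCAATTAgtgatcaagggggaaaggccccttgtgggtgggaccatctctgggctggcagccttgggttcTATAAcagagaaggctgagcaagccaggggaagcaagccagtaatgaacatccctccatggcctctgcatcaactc

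The stretches of the other 5 were 74.5% to 82.2% identical to that of Gm3143 over 169 to 260 aligned bases, and all 6 ran across the annotated start. TATAA stood once in each, beginning 16 to 42 bases before the RefSeq start, and CAATTA stood in 4 of the 6 (Gm3143, Gm16497, Gm19299 and Gm4224). On either strand, TATAA was present in 24.9% of all promoters and 30.3% of those of the lincRNAs, and TAATTG in 8% and 14.3%. Without the promoters of these 6, TAATTG was present in 10.6% of the lincRNA promoters. Counting every gene that matched any of the 6, the related promoters belonged to 70 genes, which is 0.259% of genes with a promoter. The search began from the promoters of the 102 lincRNAs, so the 6 are among the 70 by construction and no enrichment can be read from this. The 70 hold 18 lincRNAs, the 6 included, of 2005 listed lincRNAs with a promoter. Of the 64 other genes, 31 were listed in the files, and 11 of these (35.5%) had a mean of at least 10 CPM, close to the 34.7% among all 20542 listed genes with a promoter. The highest of them were Spin1, a histone reader, with 6121 CPM, and D6Ertd527e, known as the source of oocyte endo-siRNAs, with 1197 CPM. A match is a description of letters and no measure of activity, and the 6 lincRNAs did not share a profile.

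Gm3143 and Gm16497 were highest in the rRNA-poor IVV libraries (2412 and 2695 CPM, and 1179 and 1244 CPM). Gm17751 lay between 71.4 and 245 CPM in 14 libraries and at 8.55 CPM in IVG-NT-d6 2. Gm19299 ranged from 0 to 169.5 CPM with a rRNA-poor range of 69.4 to 160.3 CPM, and Gm30551 from 2.22 to 51.5 CPM. Gm4224 reached 10 CPM only in IVG-d6 1 and 2 (14.1 and 43.7 CPM) and IVG-NT-d6 1 (202 CPM), and its mean rests on that last library.

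C86187 (ENSMUSG00000110001, GRCm38 chr7:46967711-46975911, minus strand, 4 exons) was the most abundant lincRNA, and its promoter is shown for that reason. Capitals mark CAGCTG, an E-box, and TATAA. The E-box stood in 31.9% of the lincRNA promoters and 16.3% of all, and the GC box GGGCGG in 16.8% and 35.7%.
C86187, chr7:46975862-46976161 (-): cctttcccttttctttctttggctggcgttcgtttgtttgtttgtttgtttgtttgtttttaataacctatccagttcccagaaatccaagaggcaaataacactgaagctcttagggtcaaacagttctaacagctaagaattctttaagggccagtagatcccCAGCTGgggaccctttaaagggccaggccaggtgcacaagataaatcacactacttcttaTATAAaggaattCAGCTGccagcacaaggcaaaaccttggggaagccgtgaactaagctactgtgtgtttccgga

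The 2 CAGCTG and the TATAA of this promoter all lie before the start. Per library, C86187 was at 809.9, 3290.2 and 848 CPM in IVV 2, 3 and 4, at 3008, 2891 and 838 CPM in IVG 1, 2 and 3, and at 4145, 3132 and 775 CPM in IVG-NT. In IVG-d6 it was at 3389, 3269.7 and 824 CPM, and in IVG-NT-d6 at 2299.9, 1043 and 871 CPM. The 6 rRNA-poor libraries of all 5 groups fell within 775 to 871 CPM, below each of the 9 rRNA-rich ones. Group means were 1649.5 ± 1421 CPM in IVV, 2246 ± 1221 in IVG, 2684 ± 1729 in IVG-NT, 2494 ± 1448 in IVG-d6 and 1405 ± 779.9 in IVG-NT-d6 (SD, n = 3 libraries each), and the groups overlapped. For 14.5% of its transcript, 350 bases, C86187 shares exonic sequence with Gm31941 (0.00526 CPM).

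**Figure D1:**
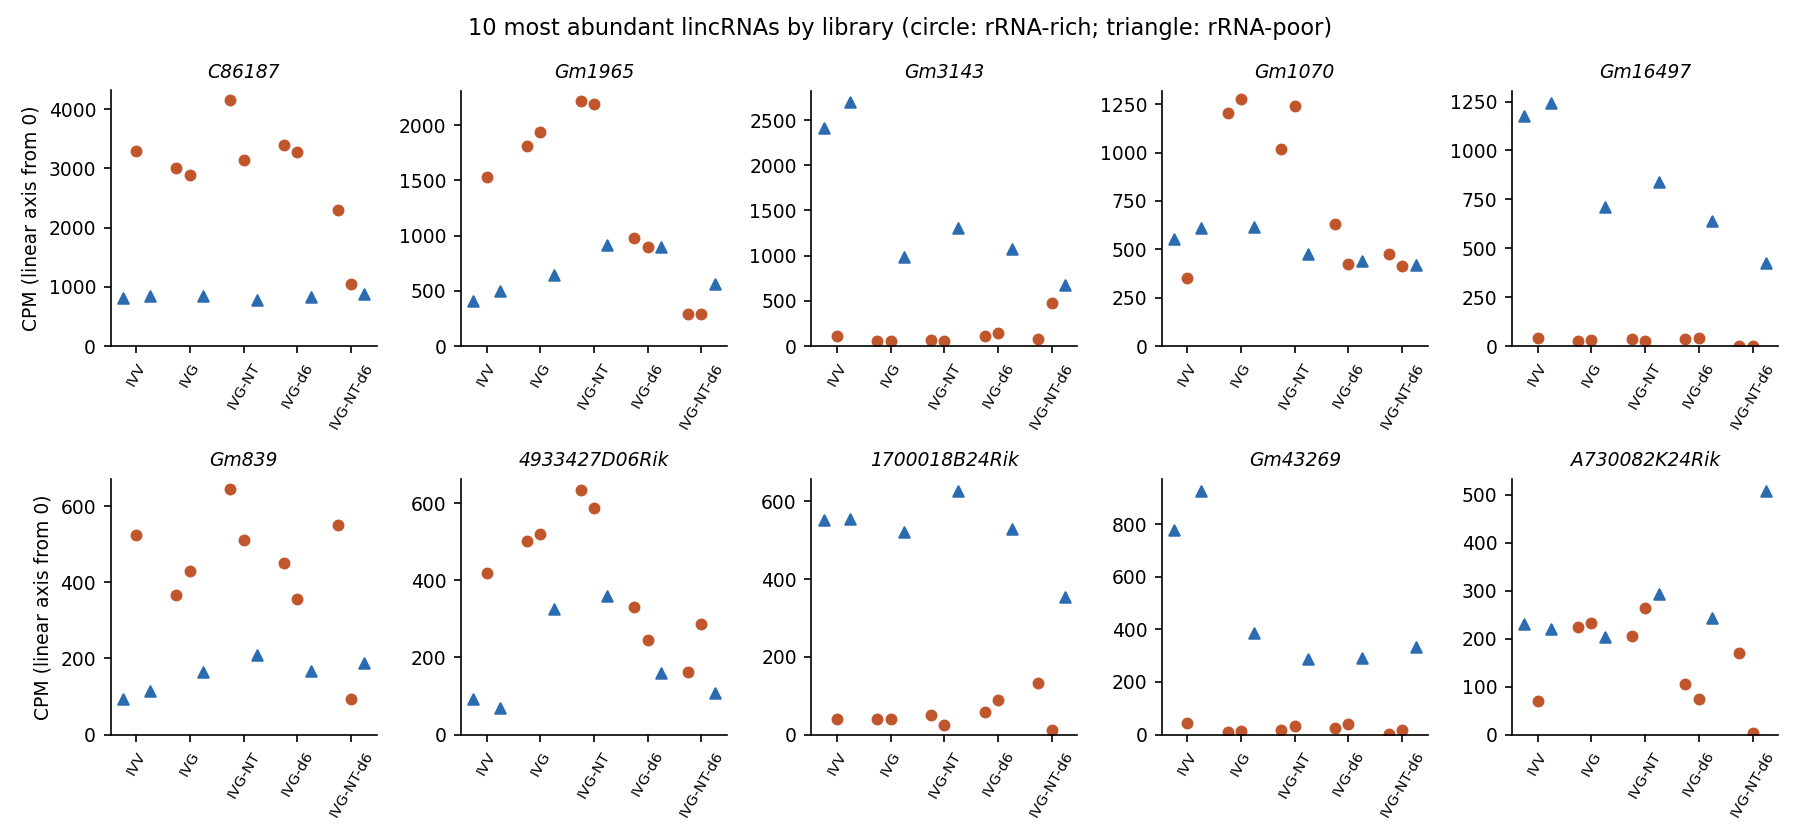
CPM (linear axis from 0) of the 10 lincRNAs with the highest mean in each of the 15 libraries, ordered by group, with circles for rRNA-rich and triangles for rRNA-poor libraries. C86187 lies within 775 to 871 CPM in the rRNA-poor libraries and at 1043 to 4145 CPM in the rRNA-rich ones, and Gm3143, Gm16497, 1700018B24Rik and Gm43269 have each rRNA-poor library above the rRNA-rich libraries.

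Mean CPM of the 223 lincRNAs ranged from 10.0 to 2096 with a median of 21.6, and 26 had a mean of at least 100 CPM. Per kilobase of exon, the order of the mean levels began with C86187 (868 CPM per kb), Gm3143 (714), Gm1965 (437), Gm43269 (411) and 1700018B24Rik (407), and the last 2 follow each other closely. Summed, the lincRNAs took 1.07% to 1.98% of the counts outside the rRNA gene, with IVV 2 and IVV 4 highest (1.84% and 1.98%) and IVG-d6 2 lowest. They made up 61.0% to 93.6% of all lincRNA counts of a library, with IVG-NT-d6 1 and 2 lowest (61.0% and 71.2%). C86187 alone was 24.4% to 31.4% of the lincRNA counts in the 7 deeper rRNA-rich libraries. Gm3143 led in 5 of the 6 rRNA-poor libraries (6.91% to 13.6%), and Xist led in IVG-NT-d6 2 (9.15%).

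**Figure D2:**
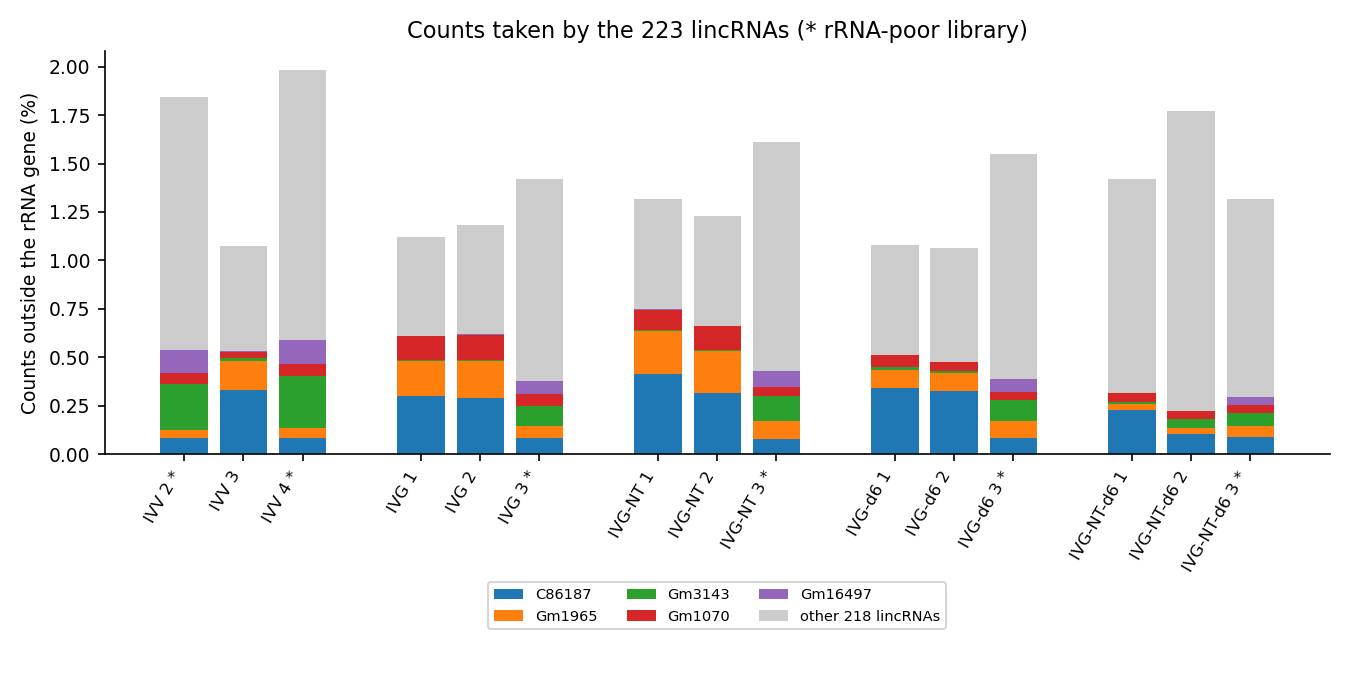
Percent of counts outside the rRNA gene that fell on the 223 lincRNAs in each library, stacked by the 5 with the highest mean and the other 218, with rRNA-poor libraries starred. The total lies between 1.07% and 1.98%, and the segment of Gm3143 is wide in the rRNA-poor libraries while that of C86187 is wide in the rRNA-rich ones.

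A second locus held 3 of the 10 most abundant lincRNAs. 4933427D06Rik, Gm1965 and Gm839 lie at chr6:88950683-89216237 on the plus, plus and minus strand, with Plxna1, a semaphorin receptor, 100077 bases from Gm839. It was the largest of 7 clusters of lincRNAs less than 100 kb apart, which held 15 in all. Gm1965 (ENSMUSG00000090254) was at 409, 1535 and 503 CPM in IVV 2, 3 and 4, at 1807, 1937 and 639 in IVG, at 2218, 2188 and 917 in IVG-NT, at 979, 893 and 893 in IVG-d6, and at 291, 289 and 565 in IVG-NT-d6. Among the rRNA-rich libraries the 4 of day 10 were all above IVV 3, which was above the 4 of day 6. 4933427D06Rik was at 92.3, 419.8 and 69.2 CPM in IVV, 503, 521 and 325 in IVG, 635, 589 and 361 in IVG-NT, 331, 246 and 159 in IVG-d6 and 163, 287 and 108 in IVG-NT-d6. Within each kind of library 4933427D06Rik was highest in the day 10 cultures, whereas Gm1965 was at 639 CPM in IVG 3 and 893 CPM in IVG-d6 3, both rRNA-poor. Gm839 ranged from 93.1 to 209 CPM in the rRNA-poor libraries and from 92.1 to 645 in the rRNA-rich ones, with IVG-NT 1 highest and IVG-NT-d6 2 lowest.

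The other abundant lincRNAs differed in how even they were. Gm1070 (chr6:71293765-71302880, plus strand, opposite to Smyd1, a muscle methyltransferase) was at 354 to 611 CPM in IVV, 614 to 1275 in IVG, 475 to 1242 in IVG-NT, 426 to 629 in IVG-d6 and 413 to 477 in IVG-NT-d6. Gm3143 (chr3:34699640-34716662, minus strand), 47179 bases from Sox2, was at 2412, 113 and 2695 CPM in IVV 2, 3 and 4, at 989 in IVG 3, 1302 in IVG-NT 3, 1071 in IVG-d6 3 and 674 in IVG-NT-d6 3, and at 52.5 to 473 in the cultured rRNA-rich libraries. Gm43269, 29719 bases from Tbx5, was at 777 and 926 CPM in the rRNA-poor IVV libraries and 288 to 385 in the rRNA-poor cultured ones. 1700018B24Rik was nearly even among rRNA-poor libraries, at 520.4 to 627 CPM in 5 of them and 355 in IVG-NT-d6 3. A730082K24Rik ranged from 3.11 CPM in IVG-NT-d6 2 to 508 CPM in IVG-NT-d6 3.

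The steadiest lincRNAs over the 15 libraries were Gm34933, Gm32442 and D030018L15Rik, with coefficients of variation of 34.6%, 37.6% and 38.5%. Gm34933 ranged from 8.82 to 25.7 CPM and D030018L15Rik from 37.4 to 151 CPM. Gm32442 lay between 36.0 and 79.3 CPM in 14 libraries and at 0.972 CPM in IVG-NT-d6 2. The median coefficient of variation was 102%.

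Many lincRNAs were abundant in few libraries. Their mean was at least 10 CPM in all 5 groups for 99, in 4 groups for 36, in 3 for 19, in 2 for 18 and in 1 for 51, and 23 reached 10 CPM in each of the 15 libraries. Without its highest library, 74 of the 223 fall below a mean of 10 CPM, and that library was IVG-NT-d6 2 for 33 and IVG-NT-d6 1 for 25, the 2 shallowest libraries. Gm38661, AC127342.1 and 4930402C01Rik had 4006, 2449 and 1247 counts in IVG-NT-d6 2 (779, 476 and 242 CPM) and 0 in each of the other 14 libraries. The part of depth in this pattern was not tested. The remaining 149 lincRNAs do not rest on 1 library in this sense, and counts among them are given beside the others below.

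**Figure D3:**
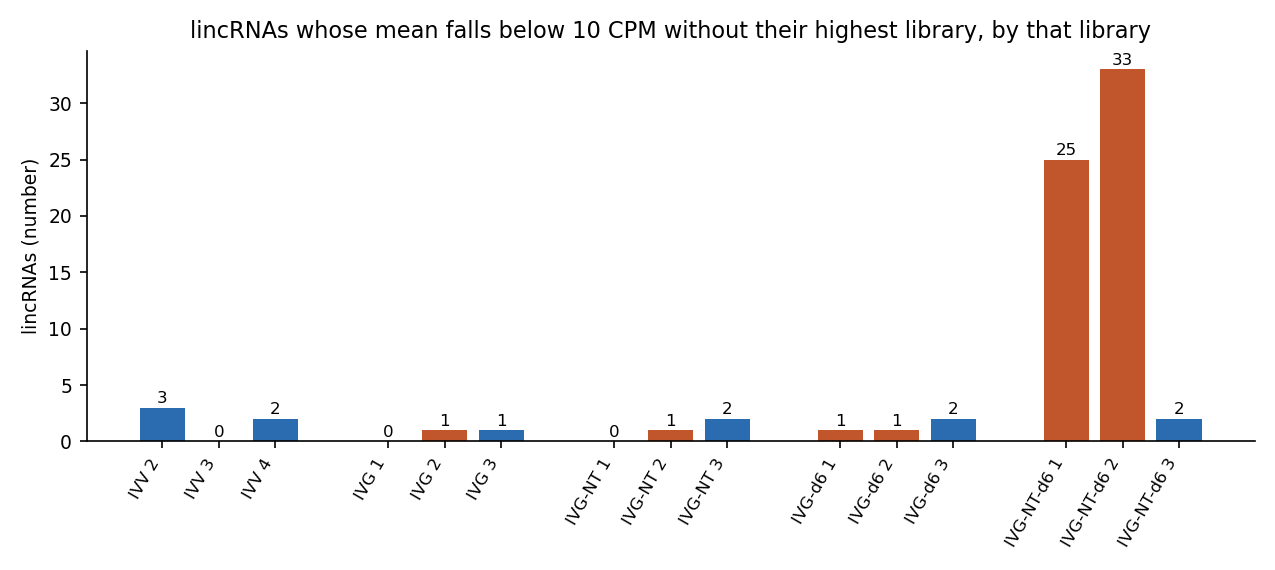
Number of lincRNAs whose mean over the other 14 libraries is below 10 CPM, by the library in which they were highest, with orange bars for rRNA-rich and blue bars for rRNA-poor libraries. IVG-NT-d6 2 and IVG-NT-d6 1 hold 33 and 25 of the 74, and no other library holds more than 3.

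The kind of library crosses all groups. Of the 200 lincRNAs that passed edgeR's filter on low counts (all of the 149, and 51 of the 74), 56 were lower in every rRNA-rich library than in every rRNA-poor one and 2 were higher, against 10.2% and 2.9% of all 21009 genes tested. Without IVG-NT-d6 1 and 2, 76 were lower and 11 higher, against 13.6% and 11.1%. C86187 and Zfp469, a name of a zinc finger gene that the annotation lists here as a lincRNA, were the 2 that were higher in all 9. Zfp469 was at 9.23 to 157 CPM in the rRNA-rich libraries and at 0.0199 to 5.69 CPM in the rRNA-poor ones. The differences in mean log2(CPM + 1), rRNA-rich minus rRNA-poor, were lowest for Gm16497 (-5.68), Gm43409 (-5.04) and 1600002D24Rik (-4.90) and highest for Zfp469 (4.48), Xist (3.70) and Gm10874 (2.85). All 9 rRNA-rich libraries enter these values. Xist had 73.75% of its summed CPM in IVG-NT-d6 2 and Gm10874 72.83% in IVG-NT-d6 1. With only the 7 deeper rRNA-rich libraries, these 2 were at 2.52 and 2.22, below Zfp469 (4.11), Gm45752 (3.21) and 9330102E08Rik (2.59). Gm16497, Gm43409 and 1600002D24Rik were then at -4.55, -5.42 and -4.29. Gm16497 was at 423 to 1244 CPM in the rRNA-poor libraries, at 23.6 to 41.1 in 7 rRNA-rich ones and at 0 in IVG-NT-d6 1 and 2. These differences are descriptions, since the libraries were sorted by what they contain.

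The difference followed the length of the transcript. Over the 149 lincRNAs, with the 7 deeper rRNA-rich libraries against the 6 rRNA-poor ones, the median difference in log2(CPM + 1) was -2.77 for longest transcripts up to 500 bases (n = 10), -2.50 from 500 to 1000 (n = 44) and -1.14 from 1000 to 2000 bases (n = 47). It was -0.03 from 2000 to 4000 bases (n = 43) and 0.98 above 4000 (n = 5). The 8645 protein-coding genes with a mean of at least 10 CPM had -2.79, -2.74, -1.05, 0.11 and 0.996 in the same bands. Spearman's rho between length and this difference was 0.527 over the 149 lincRNAs and 0.569 over the protein-coding genes, across genes that share the same libraries. The medians over all bands were -1.47 and 0.24, at median lengths of 1315 and 3574 bases. Gm43269 and 1700018B24Rik, with 518 and 593 bases of exon, and C86187, with 2415, stand on either side of this gradient, whereas Gm16497 has a transcript of 2842 bases and was lower in the rRNA-rich libraries. Of the 14 lincRNAs that were higher in the rRNA-rich libraries by more than 1, 11 had a poly(A) signal in the last 50 bases of the transcript (78.6%), as did 31 of 45 within 1 (68.9%) and 47 of the 90 lower by more than 1 (52.2%). Whether RNA length, poly(A) tails or a step of library preparation underlies the kinds was not tested.

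**Figure D4:**
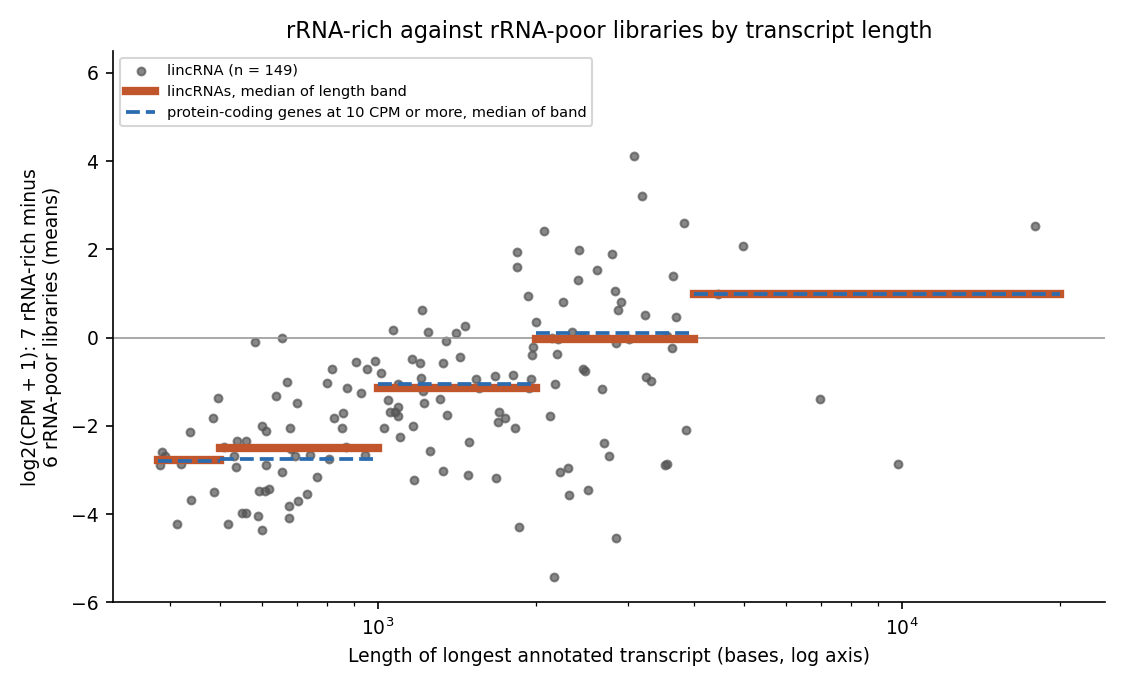
Difference in mean log2(CPM + 1) between 7 rRNA-rich and 6 rRNA-poor libraries against the length of the longest annotated transcript (bases, log axis) for 149 lincRNAs (points), with the median of each length band for these lincRNAs (solid) and for 8645 protein-coding genes (dashed). Both medians rise from about -2.8 in the shortest to about 1 in the longest band.

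IVV oocytes were compared with cultured oocytes at day 10 by edgeR's quasi-likelihood test over all genes, and a gene was called where the unadjusted P was under 0.05 and the log2 fold change above 1 or below -1. For IVG against IVV, 3 of the 200 lincRNAs were called, Gm10874 higher (log2 fold change 8.12, standard error 2.34) and Miat and Gm6729 lower, while 2.76% of all genes were called (0.842% higher and 1.91% lower). Both lower calls come from IVV 3, with 18.9 CPM of Miat and 3.05 CPM of Gm6729, and both were at 0 in IVV 2 and 4. No fold is given for them, since Gm6729 had 0 counts in IVG and Miat 4 counts in IVG 3 alone. For IVG-NT against IVV, 3 were called, Gm10874 (8.55, standard error 2.38) and 4933427D06Rik (1.66, standard error 0.70) higher and Miat lower, with 3.29% of all genes called (0.624% higher and 2.67% lower). None of these passed an adjusted p of 0.05 (each adjusted p = 1 in edgeR's quasi-likelihood test), and DESeq2's Wald test passed 1 lincRNA in each comparison, against 0.324% and 0.428% of all genes. Of the 149, 0 were called for IVG and 1, 4933427D06Rik, for IVG-NT. Both comparisons use the same IVV libraries. The median log2 fold change of the lincRNAs was -0.75 for IVG and -0.55 for IVG-NT, and that of all genes -0.20 and -0.19. IVV has 1 rRNA-rich library and each cultured group 2, and with the kind as a covariate 8 and 7 lincRNAs were called, against 3.83% and 4.31% of all genes.

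Gm10874 (chr5:138363719-138388287, plus strand) had 4 counts in IVV 2 and 0 in IVV 3 and 4, 781, 347 and 0 counts in IVG 1, 2 and 3, and 501, 557 and 277 in IVG-NT. All 3 IVG-NT libraries (16.9, 20.9 and 7.25 CPM) were above all 3 IVV libraries, as for 4 of the 200 lincRNAs (2%) and 3.34% of all genes. The exons of Gm10874 overlap Got2-ps1 and Cyp3a61-ps1. They are 98.8% identical over 1637 bases to Got2, a mitochondrial aminotransferase gene with a mean of 81.1 CPM, so the counts of Gm10874 are uncertain. The fold of 8.55 rests on the 4 counts of IVV 2. It was called in 15 of 15 alternatives, from 7.16 with the kind of library as covariate to 11.89 without IVV 2, where IVV is at 0 and the value depends on the prior count. Without IVG 3, 19 of 209 lincRNAs were called for IVG against IVV, against 4.56% of all genes, and without IVG-NT 3, 14 of 209 for IVG-NT against IVV, against 4.77%. Without the other libraries of these groups, singly, the counts were 1 to 5, against 0.843% to 3.7% of all genes.

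Within the same kind of library, lincRNAs above and below the cultured libraries were counted in IVV. In both rRNA-poor IVV libraries 58 of the 200 (29%) were above all 4 rRNA-poor cultured libraries, against 14.3% of all genes, and 19 (9.5%) were below, against 12.1%. In the rRNA-rich IVV 3, 49 (24.5%) were above the 6 cultured libraries other than IVG-NT-d6 1 and 2, against 30.3% of all genes, and 29 (14.5%) were below, against 10.9%. So the share above was over that of all genes in the rRNA-poor libraries and under it in IVV 3. Among the 149, 50 were above in the rRNA-poor libraries, 31 in IVV 3 and 16 in both. Both held for 19 lincRNAs (9.5%), against 5.34% of all genes, and the reverse for 2, Gm5165 and AL805899.1, against 2.35%. In 7 of the 19, IVG-NT-d6 1 or 2 was above IVV 3. This is a description without a test, with 2 and 1 IVV libraries. The most abundant of the 19 was Gm43269, with a mean of 851 CPM in IVV and 324 in culture, and 42.7 against 22.9 CPM in the rRNA-rich ones. Gm47448 had 211.5 against 96.2 CPM and 11.0 against 4.84 CPM, but it was at 206 CPM in the left-out IVG-NT-d6 2. Gm11426 had 223 against 104 CPM and 37.8 against 18.2 CPM. Gm10076 had 210.5 against 97.9 CPM and 46.0 against 15.4 CPM, with 82.2 CPM in IVG-NT-d6 2. Over 99.7% of its transcript it is 99.5% identical to Rpl41, a ribosomal protein gene with a mean of 384 CPM, so that its reads cannot be told apart from those of Rpl41 by sequence. Snhg18, a host gene of small nucleolar RNA, had 109 against 52.9 CPM and 14.7 against 6.15 CPM.

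**Figure D5:**
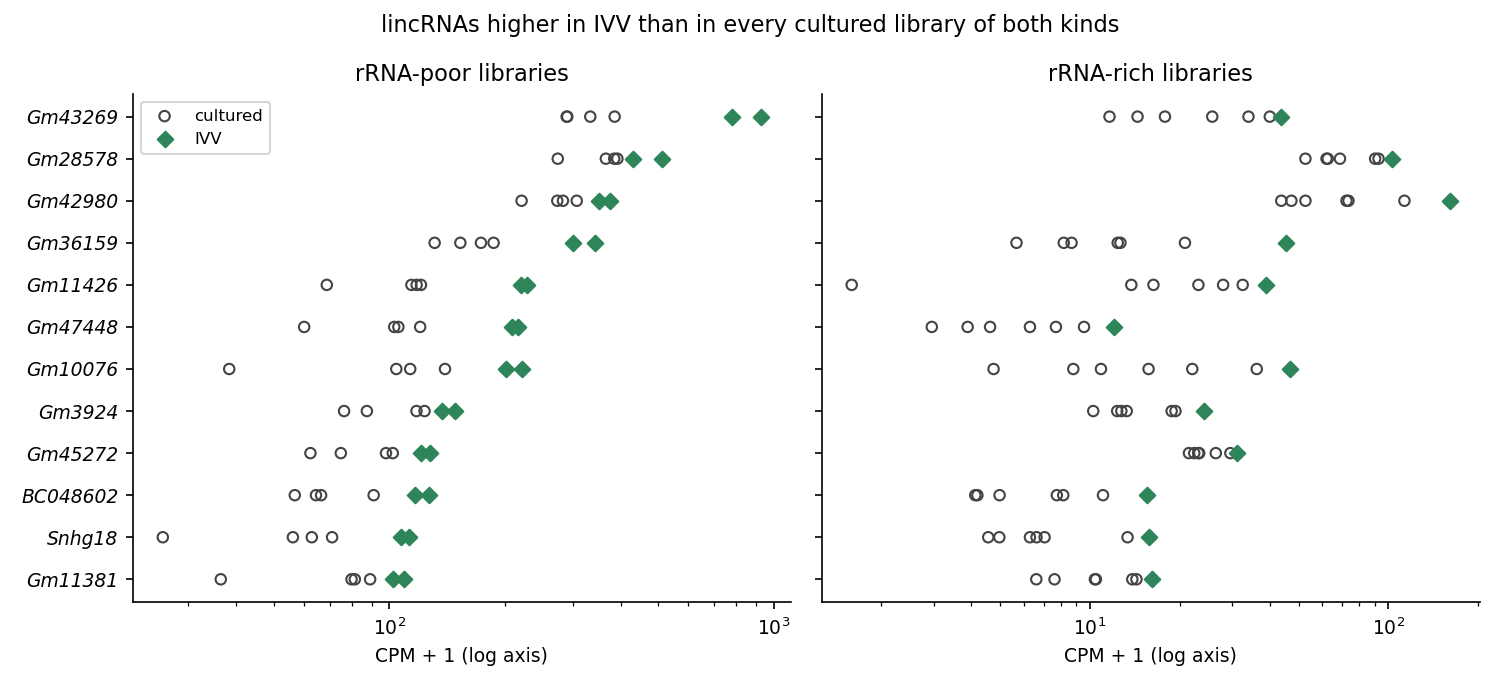
CPM + 1 (log axis) of 12 lincRNAs in the rRNA-poor libraries (left, 2 IVV and 4 cultured) and in rRNA-rich libraries (right, 1 IVV and 6 cultured, without IVG-NT-d6 1 and 2), with diamonds for IVV and open circles for cultured oocytes. The 12 are those of the 19 with IVV above every cultured library shown that have the highest IVV mean in the rRNA-poor libraries, from 104.6 CPM in Gm11381 to 851 CPM in Gm43269, and the other 7 and the 2 with the reverse order are not drawn.

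No lincRNA was called for NT-4 at day 10. Between IVG-NT and IVG, 0 of the 200 were called, while 1.24% of all genes were, and 0 of the lincRNAs had an unadjusted P under 0.05 in edgeR. DESeq2's Wald test passed 0, against 0.243% of all genes. The median log2 fold change was 0.20 for the lincRNAs and 0.01 for all genes. C86187 differed by 0.27 (standard error 0.76), Gm1965 by 0.30 (standard error 0.62), Gm3143 by 0.51 (standard error 1.41) and Gm43269 by -0.12 (standard error 1.61). With the replicate number as a block 1 lincRNA was called, against 0.605% of all genes. The standard errors of Gm3143 and Gm43269 are above 1 log2 unit, so differences of that size were not detectable in these genes.

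NT-4 at day 6 was compared between IVG-NT-d6 and IVG-d6, where the 2 shallow libraries are on the NT-4 side. Here 25 of the 200 lincRNAs were called, 22 higher and 3 lower with NT-4, against 11.6% of all genes called (6.74% higher and 4.83% lower). In edgeR 0 passed an adjusted p of 0.05, and in DESeq2 4 did, against 2.87% of all genes. Of the 22 that were higher, 21 rest on 1 library, and the mean that chose them includes these libraries. Among the 149 lincRNAs, 4 were called. Without IVG-NT-d6 1 and 2, with IVG-NT-d6 3 alone on the NT-4 side and assumed to vary like the other groups, 10 of 204 lincRNAs were called (3 higher and 7 lower), against 2.7% of all genes. Without IVG-NT-d6 3 instead, 103 of 208 were called, against 29.1% of all genes.

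The libraries of the groups did not overlap for any of the 3 lower lincRNAs. Called or not, 14 of the 200 lincRNAs (7%) had no overlap in this direction, against 7.17% of all genes. Gm46401 (chr13:5915793-6014285, 45399 bases from Klf6) was at 1.90, 16.3 and 13.2 CPM in IVG-d6 and at 0, 0 and 0.438 CPM in IVG-NT-d6, with a log2 fold change of -5.73 (standard error 1.76, adjusted p = 0.381 in edgeR's quasi-likelihood test). This fold rests on 22 counts in IVG-NT-d6 3 and 0 in the other libraries of that group. It ranged from -5.20 to -11.25 over 15 alternatives, the last without IVG-NT-d6 3, where the group is at 0 and the value depends on the prior count. Gm46401 was called in each of these, and in 15 of 16 alternatives in all. Gm10857 was at 178, 135 and 60.7 CPM and at 11.5, 1.75 and 27.3 CPM (-3.27, standard error 1.03), and its exons overlap Gm13384, so its counts are uncertain. AY512915 was at 132, 77.4 and 46.2 CPM and at 2.40, 1.94 and 37.6 CPM (-2.63, standard error 1.06). AY512915 was called in 10 of 16 alternatives. Among 15 of them the call was lost with the replicate block, with the 2 groups alone and without IVG-d6 1, IVG-NT-d6 1 or IVG-NT-d6 2. The value was -5.34 without IVG-NT-d6 3 and -5.72 in rRNA-rich libraries alone. In each the low values were those of IVG-NT-d6 1 and 2, apart from Gm46401, which was near 0 in IVG-NT-d6 3 as well. Malat1 was the 1 called higher that does not rest on 1 library (2.97, standard error 1.25), with 77.4, 75.1 and 51.6 CPM in IVG-d6 and 1551, 153 and 47.9 CPM in IVG-NT-d6, so the groups overlapped.

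Day 10 was compared with day 6 in the same way. Without NT-4 (IVG against IVG-d6), 0 of the 200 lincRNAs were called or had an unadjusted P under 0.05 in edgeR's quasi-likelihood test, DESeq2's Wald test passed 0 (0.519% of all genes), and 2.9% of all genes were called. With the replicate number as a block 1 was called, against 1.71% of all genes. With NT-4 (IVG-NT against IVG-NT-d6), 34 were called, 7 higher and 27 lower at day 10, against 12.7% of all genes (5.45% higher and 7.21% lower). In edgeR 0 had an adjusted p under 0.05, and in DESeq2 8 did, against 3.23% of all genes. This comparison shares the IVG-NT-d6 libraries with the NT-4 comparison of day 6, and of its 27 lower lincRNAs 26 rest on 1 library. Without IVG-NT-d6 1 and 2, 9 of 204 were called, against 2.4% of all genes, and without IVG-NT-d6 3, 110 of 208, against 30.8%.

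All 7 that were higher at day 10 with NT-4 belong to the 149. Whether called or not, 12 of the 200 lincRNAs (6%) had each IVG-NT library above each of IVG-NT-d6, against 8.23% of all genes. Gm1965 had a mean of 1774 ± 742 CPM in IVG-NT and 382 ± 159 in IVG-NT-d6 (SD, n = 3), a log2 fold change of 2.33 (standard error 0.65, adjusted p = 0.357 in edgeR's quasi-likelihood test, 0.0169 to 1 over the alternatives), and each IVG-NT library (2218, 2188 and 917 CPM) was above each of IVG-NT-d6 (291, 289 and 565 CPM). Its neighbour 4933427D06Rik had 528 ± 147 and 186 ± 91.7 CPM, a log2 fold change of 1.59 (standard error 0.70). It was called in 8 of 15 alternatives, and the call was lost in DESeq2 (1.05) and with its size factors (1.05), with the 2 groups alone, and without IVG-NT 1, IVG-NT 2, IVG-NT-d6 1 or IVG-NT-d6 3. Without NT-4 the values of these 2 for day 10 against day 6 were 0.73 and 0.92, not called. Gm46401 had 3.87, 3.31 and 44.1 CPM in IVG-NT (6.52, standard error 1.82), with the 44.1 CPM in the rRNA-poor library. Over 15 alternatives, all called, it ranged from 4.30 without IVG-NT 3 to 12.04 without IVG-NT-d6 3. Among the lower lincRNAs, the libraries of the groups did not overlap for Miat, AC160336.1 and D030068K23Rik, and all 3 rest on 1 library. In this direction 5 of the 200 lincRNAs (2.5%), called or not, had no overlap, against 1.47% of all genes. D030068K23Rik was at 3.03, 3.34 and 3.69 CPM in IVG-NT and 53.0, 29.5 and 7.82 CPM in IVG-NT-d6 (log2 fold change -3.02). It was called in 9 of 16 alternatives. Among 15 of them the call was lost with the replicate block, with no filter on low counts, with the 2 groups alone and without any single IVG-NT library. AC160336.1 was at 1.55, 2.59 and 2.85 CPM and at 41.2, 62.0 and 3.05 CPM, and it spans 93147 bases as a single exon that overlaps 5 other genes, so its counts are uncertain.

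The difference between the NT-4 effects of day 10 and day 6 was tested as an interaction. It was called for 13 of the 200 lincRNAs, 2 higher (Gm46401, 6.36, and Gm10857, 3.63) and 11 lower, against 6.37% of all genes (2.09% higher and 4.28% lower), and 0 passed an adjusted p of 0.05 by edgeR or by DESeq2, which passed 0.785% of all genes. All 11 lower ones rest on 1 library.

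Of 63 RNAs listed for known roles, 53 were in the files, 27 of them as lincRNA genes, and 5 of these passed 10 CPM. Malat1 was at 4.63 to 246 CPM in 13 libraries, at 153 CPM in IVG-NT-d6 2 and at 1551 CPM in IVG-NT-d6 1. Xist was at 0 to 4.50 CPM in the rRNA-poor libraries, at 0 to 226 CPM in the 7 deeper rRNA-rich ones, and at 213 and 1620.1 CPM in IVG-NT-d6 1 and 2. Miat, a nuclear RNA named for myocardial infarction, was at 18.9 CPM in IVV 3 and 249 CPM in IVG-NT-d6 2 and at 2.16 CPM or less in each other library. So 3 of these 5, all with exons that overlap other annotated genes, had their highest level in a shallow library. Of the granulosa cell genes, Kitl was highest in IVG-NT-d6 1 (123 CPM) but at 0.778 CPM in IVG-NT-d6 2. Nr5a2 was highest in IVG-NT-d6 2 (128 CPM) but at 5.99 CPM in IVG-NT-d6 1. Lhcgr was highest in both (16.8 and 36.5 CPM), while Amh, Fshr, Foxl2, Inhba and Hsd17b1 were at 0 in both. The part of granulosa cells in the result was not tested. Pvt1, downstream of Myc, was more even, at 0 to 26.0 CPM. Snhg18, which starts 148 bases from Sema5a, was at 24.7 to 111 CPM in the rRNA-poor libraries and at 0 to 14.7 in the rRNA-rich ones.

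Several well-known RNAs were not members. Neat1, which builds nuclear paraspeckles, was just under the limit at a mean of 9.17 CPM, with 94.5 CPM in IVG-NT-d6 2, and the imprinted Meg3 and H19 had 7.70 and 0.168 CPM. Kcnq1ot1, an imprinted antisense RNA, had a mean of 135 CPM, with 616 and 1291 CPM in IVG-NT-d6 1 and 2, but another biotype. The lincRNAs nearest above the limit were Gm35208 (10.02 CPM), AC157548.1 (10.03) and CT025671.4 (10.05), and those nearest below were Gm47230 (9.97), Gm48073 (9.91) and Gm20610 (9.90). CT025671.4 was at 142 CPM in IVG-NT-d6 2 and at 0 to 8.30 CPM elsewhere, and Gm20610 was at 149 CPM in IVG-NT-d6 2 and 0 elsewhere, so counts in that library decide on which side of the limit they lie.

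In structure, the 223 lincRNAs had a median of 3 exons in their longest transcript, as did the 2890 other lincRNAs with a count. Their median exonic length was 1771 bases against 1143.5, and their median GC content 47.4% against 46.5%. A protein-coding gene lay within 5 kb of 51 (22.9%) and of 677 of the others (23.4%). Exons of 36 (16.1%) overlapped an exon of another annotated gene, as did 431 of the others (14.9%), and counts of such genes are uncertain because strand was not used here. A stretch of at least 100 bases that was at least 98% identical to another annotated gene was found in 50 of the 223, 32 of them among the 149. Besides Gm10874 and Gm10076, E330016L19Rik and Gm2309 are 99.8% identical to each other over 1941 bases, and AC157548.1 is 98.7% identical to Tuba1b, a tubulin gene, over 1588 bases.

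Among genes of nuclear RNA decay, which act on nuclear polyadenylated RNA, 27 of 29 listed were tested. None was called in 5 of the 6 comparisons by edgeR's quasi-likelihood test. In IVG-NT against IVG-NT-d6, the exonuclease gene Xrn2 (2.22) and the poly(A) polymerase gene Tent4a (1.60) were called higher and the exosome gene Exosc9 (-1.77) lower, with adjusted p from 0.357 to 0.365 in edgeR's quasi-likelihood test, beside the 12.7% of all genes called there. Xrn2 was at 147, 137 and 140 CPM in IVG-NT and at 10.55, 7.39 and 80.7 CPM in IVG-NT-d6. The first 2 of these IVG-NT-d6 values are from the shallow libraries. Tent4a had 502, 382 and 231 against 213, 25.3 and 175 CPM. Exosc9 had 25.5, 19.8 and 24.6 against 61.1, 142 and 46.8 CPM.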

How the data were processed

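Read counts per gene, as deposited by the authors, were used for 15 oocyte libraries, 1 table per library. Per the study's methods, adaptor and low-quality reads (below 20) were removed and reads were aligned with HISAT2 to mm10. How reads were counted per gene, and strand, are not given in the sources used here. The members and gene lists were chosen with earlier results of these data known. 55141 of 55401 identifiers matched GENCODE vM21. The gene CT010467.1 was left out of the library totals used for CPM. It was kept in the tests, and removing it from the fit was an alternative. Counts were tested with edgeR 4.0.16 (quasi-likelihood F test, TMM, a minimum count of 10 in filterByExpr, 1 fit of the 5 group means) and Benjamini-Hochberg adjustment over 21009 genes. DESeq2 1.42.0, filters, the replicate block and left-out libraries were alternatives, and those without IVG-NT-d6 1 and 2 and without lincRNAs resting on 1 library were added after seeing the data. The fit was also run on simulated data with a capped spread, large planted changes and no difference between kinds of library. That run does not measure what the fit can detect in these libraries. Sequences came from GENCODE vM21 transcripts and RefSeq promoters, compared with BLAST 2.17.0. The end of 1 transcript is not reported here.

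Genes named are the 10 highest means, members of the role lists, up to 3 called and not overlapping per comparison and direction, the 3 on either side of the limit, the 3 extremes between kinds of library, the 3 steadiest and the 3 most confined to 1 library. The lincRNAs of related promoters, those shown for IVV within kinds, for shared exons or in counts of few genes were chosen after their values were seen. Same-numbered libraries deviated together in IVG-NT and IVG (correlations 0.37, 0.41 and 0.73) and in IVG and IVG-d6 (0.23, 0.15 and 0.54). With IVV libraries 2 and 3 the correlations were negative, at -0.28 and -0.49 for IVG and at -0.33 and -0.52 for IVG-NT. IVV 3 is rRNA-rich, and IVV 4 shares its number with no cultured library. In every cultured group libraries 1 and 2 are rRNA-rich and library 3 is rRNA-poor, so pairing and the kind of library cannot be told apart. The main fit was unpaired, and the replicate number entered only as a block in an alternative. Per the study's methods, the libraries of a group come from 3 repeated experiments, and no source says that a shared number marks the same experiment. The sample titles number the IVV libraries 2 to 4 and the deposited names of their counts 1 to 3, and the titles were used, also in the block. Reads carry no molecular identifiers.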

Additional observations from a re-analysis of the deposited data

How the results depend on the processing

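Of 147 alternatives for 10 named fold changes, 127 kept direction and call, 20 kept direction without the call, and 0 turned. These counts leave out some of the alternatives run. Over all of them, Gm10874 was called in 16 of 16 and Gm46401 in 15 of 16 at day 6 and 16 of 16 for day 10 against day 6. Gm10857 and Gm1965 were called in 15 of 16, AY512915 in 10 of 16 and AC160336.1 in 14 of 16. For 4933427D06Rik and D030068K23Rik it was 9 of 16, and for Miat 11 of 14. Counts of called lincRNAs are given in the order IVG against IVV, IVG-NT against IVV, IVG-NT-d6 against IVG-d6 and IVG-NT against IVG-NT-d6, where the main counts were 3, 3, 25 and 34, and each percentage in brackets is the share of all genes tested that the same fit called. They were 12, 17, 55 and 58 with no filter on low counts (4.49%, 4.33%, 11% and 11.6%), 10, 6, 12 and 21 with the replicate block (2.54%, 2.65%, 5.42% and 6.23%), 8, 7, 55 and 54 with the kind of library as covariate (3.83%, 4.31%, 15.8% and 16.9%), 8, 8, 85 and 97 in rRNA-rich libraries only (1.68%, 1.53%, 18.1% and 19.5%), 5, 5, 10 and 14 with the 2 compared groups alone (5.28%, 4.1%, 3.06% and 4.51%), 8, 5, 10 and 9 without IVG-NT-d6 1 and 2 (4.43%, 4.24%, 2.7% and 2.4%), and 0, 1, 4 and 8 among the 149 that do not rest on 1 library. The first 2 block counts rest on the IVV numbers of the sample titles, 2 to 4, which the tables' names give as 1 to 3. With the rRNA gene removed from the fit, the counts were 3, 4, 23 and 33 (2.65%, 3.06%, 11.4% and 12.4%). A stricter filter gave 1 for IVG against IVV (1.43%) and 15 for IVG-NT-d6 against IVG-d6 (10.5%). The lincRNAs away from other genes gave 1, 1 and 15 in the first 3 comparisons. No share over all genes and no count for the last comparison is given for them, so these are not set against the other settings. Leaving out 1 library gave 1 to 19, 1 to 14, 21 to 103 and 29 to 110, the highest without IVG 3 (4.56%), IVG-NT 3 (4.77%) and, for the last 2, IVG-NT-d6 3 (29.1% and 30.8%). For IVG-NT against IVG (main count 0) no filter gave 4 (0.756%), the replicate block 1 (0.605%) and leaving out 1 library 0 to 1. For IVG against IVG-d6 (main count 0) no filter gave 5 (2.21%), DESeq2 2 (2.82%), the block 1 (1.71%), the kind as covariate 4 (4.86%), rRNA-rich libraries 3 (1.77%), the groups alone 3 (2.49%), no IVG-NT-d6 1 and 2 gave 4 (3.38%), and leaving out 1 library 0 to 3. The interaction gave 9 with the block (3.35%). Same-numbered libraries of IVG-NT-d6 correlated at 0.083, 0.107 and 0.328 with IVG-d6, and at 0.080, 0.066 and 0.260 with IVG-NT. Whether they are paired cannot be told from these values. The limit gave 372 lincRNAs at 5 CPM, 117 at 20 CPM, 121 by the median, and 194 to 229 without 1 library. With the rRNA gene in the total, the lincRNA share was 1.18% in IVG-NT and 1.20% in IVG-NT-d6. The cause of these shifts was not tested.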
